A study of Mus musculus with 6 samples.

Results

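The NR4A orphan nuclear receptors (Nr4a1, Nr4a2, Nr4a3) and the EGR zinc-finger factors (Egr1, Egr2, Egr3) were followed as 6 genes of the 55291 gene symbols in a table of raw RNA-seq counts. They were picked by gene family name, at a time when earlier results of these data were known. The table holds 3 natural killer (NK) cell libraries and 3 type 1 innate lymphoid cell (ILC1) libraries. All came from subcutaneous tumours that MC38 cells, a C57BL/6 mouse colon carcinoma line, had formed in wild-type C57BL/6 mice, taken 14 days after transplantation. Both groups share this strain, tumour and day, and cells were sorted straight into TRIzol. The labels name no age or sex of the mice, no surface markers for the sort, and no mouse for each sample. The 3 libraries of a cell type could thus share animals, and the p-values reflect only how far these libraries spread, which may be technical.

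NR4A and EGR genes are classic immediate-early response genes: an antigen, cytokine or stress signal switches them on within a short time and without new protein synthesis. NR4A proteins act without a bound ligand, and in T cells their sustained expression is a known feature of chronic antigen receptor stimulation, beside TOX and PD-1. EGR1 mostly follows MAP kinase signalling through serum response factor, whereas EGR2 and EGR3 also follow calcium and NFAT signalling and take part in T cell anergy. The same genes are also known to respond to tissue digestion and cell sorting, so their mRNA alone does not tell a stimulus in the tumour from handling.

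The stretches before a RefSeq start of 4 of the genes are printed. The reason is that cAMP response elements and serum response elements are the textbook inputs of these families. Each stretch is the 250 bases before the RefSeq start (GRCm38.p6), 5′ to 3′ on the gene's strand. By the GENCODE M21 gene bounds, only the Nr4a2 window lies wholly before its gene. The Nr4a1 and Egr2 windows lie inside the gene, and the Nr4a3 window runs past the start of its gene. Capitals mark TGACG, the core of a cAMP response element, on either strand, and, in Egr2 alone, a CArG box, the binding sequence of serum response factor. The windows are chr15:101266596-101266845 (forward strand) for Nr4a1, chr2:57124004-57124253 (reverse) for Nr4a2, chr4:48045055-48045304 (forward) for Nr4a3 and chr10:67537619-67537868 (forward) for Egr2, the middle of 5 listed Egr2 starts.
Nr4a1: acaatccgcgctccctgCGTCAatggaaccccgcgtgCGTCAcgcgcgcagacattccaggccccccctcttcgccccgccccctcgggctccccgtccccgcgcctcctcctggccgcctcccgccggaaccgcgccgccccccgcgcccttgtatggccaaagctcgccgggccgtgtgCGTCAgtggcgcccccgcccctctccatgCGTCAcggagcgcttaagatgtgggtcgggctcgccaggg
Nr4a2: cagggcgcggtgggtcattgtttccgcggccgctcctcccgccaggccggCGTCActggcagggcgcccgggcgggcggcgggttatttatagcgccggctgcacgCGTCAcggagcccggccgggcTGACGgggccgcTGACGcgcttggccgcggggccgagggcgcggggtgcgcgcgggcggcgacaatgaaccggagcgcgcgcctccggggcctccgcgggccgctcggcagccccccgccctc
Nr4a3: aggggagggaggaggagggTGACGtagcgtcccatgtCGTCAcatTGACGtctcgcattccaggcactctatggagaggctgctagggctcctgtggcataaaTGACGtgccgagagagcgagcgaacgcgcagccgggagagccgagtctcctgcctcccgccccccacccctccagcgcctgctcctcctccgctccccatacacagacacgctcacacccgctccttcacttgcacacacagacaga
Egr2: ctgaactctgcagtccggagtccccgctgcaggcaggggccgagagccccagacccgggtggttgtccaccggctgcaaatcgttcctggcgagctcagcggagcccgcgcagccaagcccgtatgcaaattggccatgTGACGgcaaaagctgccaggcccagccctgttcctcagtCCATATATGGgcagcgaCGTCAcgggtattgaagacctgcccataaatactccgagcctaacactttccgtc

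TGACG occurred 4 times in each of the NR4A windows and 2 times in the Egr2 window, and 17.8% of the 32851 RefSeq windows of the same length (27025 genes) held it at least once. The CArG box of Egr2 lay 72 to 63 bases before the start (CCATATATGG), and 1.47% of windows held a CArG box. The Egr2 matches depend on the start taken: by rising coordinate, the windows of starts 1 and 2 held 0 TGACG, and that of start 1 held 0 CArG boxes. The EGR binding sequence GCGNGGGCG occurred 1 time each in the Nr4a1 and Nr4a2 windows, against 4.7% of windows. The full element TGACGTCA, which contains TGACG (1.55% of windows), and the NR4A binding sequence AAAGGTCA (1.34%) were not among the letters of these 4 windows. All motifs were searched on both strands, and a match is a description, not a shown site of binding.

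Library totals ran from 16931099 to 20224847 counts. A gene with 0 counts could still have had a level of up to 3 counts, or 0.148 to 0.177 CPM (counts scaled to the library total), as far as counting error goes. The libraries differed by lineage markers as labelled: the summed level of 8 NK cell markers was 5418 to 8915 CPM in NK libraries and 1902 to 2925 CPM in ILC1 libraries, and that of 8 ILC1 markers 147 to 177 and 579 to 933 CPM. The libraries also differed in other ways. NK replicate 3 and ILC1 replicates 1 and 2 carried fibroblast and matrix mRNA, such as the collagen gene Col3a1 at 403 to 761 CPM against 0.349 to 20.8 CPM in the other 3. The name matrix-rich libraries stands for these 3 below, a set drawn up with the values in view. ILC1 replicate 3 carried macrophage mRNA, with a summed level of 10 macrophage and monocyte markers of 11148 CPM against 101 to 320 CPM elsewhere.

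In both cell types Nr4a1 was the most abundant of the 6 mRNAs per length. On the scale of CPM per kilobase of exon (RPKM), its level was 144 ± 46.99 in NK cells and 203 ± 23.1 in ILC1s (mean ± SD, n = 3 each). Egr1 followed with 71.9 ± 56.9 and 146 ± 63.9 RPKM, and its range overlapped that of Nr4a1 in both cell types. In ILC1 replicate 2 alone Egr1 lay above Nr4a1, at 187 against 185 RPKM. Nr4a2 had 30.1 ± 9.05 RPKM in NK cells and 36.3 ± 9.52 RPKM in ILC1s, and Nr4a3 15.03 ± 0.428 and 27.5 ± 3.36 RPKM. Nr4a2 and Nr4a3 were apart in NK cells and overlapped in ILC1s. Egr2 (6.04 ± 5.54 and 24.5 ± 15.6 RPKM) and Egr3 (6.92 ± 5.66 and 13.8 ± 8.23 RPKM) overlapped each other in both cell types. Egr4, the remaining family member, had 8 and 3 counts in NK replicate 1 and ILC1 replicate 1 and 0 in the other 4 libraries, and did not pass the filter on low counts.

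All 6 genes passed that filter, and by CPM Nr4a1 and Egr1 stood at the 98.4th and 97.9th percentile of the 14475 genes tested. On GRCm38 (GENCODE M21) they are protein-coding genes with no other annotated gene overlapping them: Nr4a1 at 15:101254269-101274795, Nr4a2 at 2:57106830-57124003, Nr4a3 at 4:48045153-48086447, Egr1 at 18:34859823-34864984, Egr2 at 10:67535475-67542188 and Egr3 at 14:70077203-70082614. Nr4a2 lies on the reverse strand and the others on the forward strand. Counts refer to whole genes.

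ILC1s had the higher mean of all 6 mRNAs, but none of the 6 passed the test over all genes. With edgeR's quasi-likelihood test and Benjamini-Hochberg adjustment, 0 of 6 had an adjusted p under 0.05, where 0.0829% of all genes tested were called in either direction. The unadjusted p was under 0.05 for Nr4a3 alone, against 15.8% of genes. DESeq2 called Nr4a3 and Egr2 higher, against 2.83% of genes, and limma-voom called 0, against 0.124%. The ILC1 libraries lay above every NK library for the same pair, Nr4a3 and Egr2, as they did for 12.5% of genes tested. A log2 fold change above 0 was found for 6 of 6, and for 56% of genes.

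**Figure D1:**
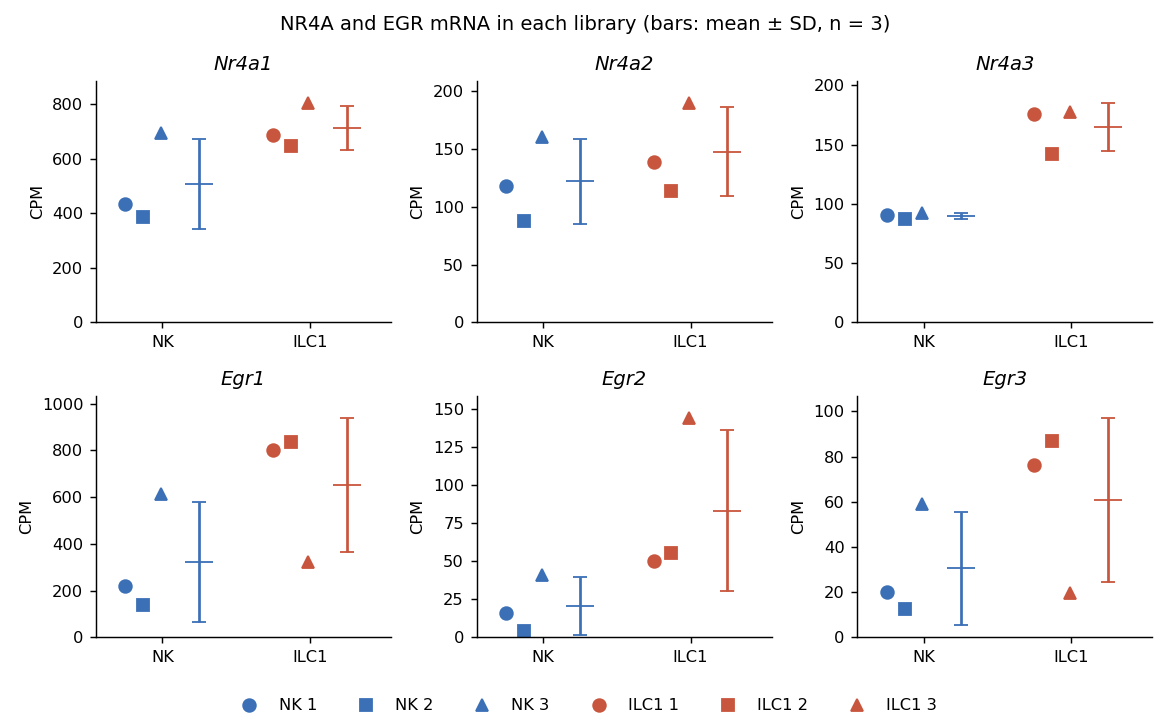
CPM (TMM-scaled) of each gene in the 3 NK (blue) and 3 ILC1 (red) libraries, with circles, squares and triangles for replicates 1, 2 and 3, and group mean ± SD at the right of each group. Nr4a3 is apart by cell type with tight groups, while NK replicate 3 lies with the ILC1 libraries for Nr4a1, Nr4a2, Egr1 and Egr3.

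Nr4a3 was the member that split most cleanly by cell type. Its level was 90.4, 87.2 and 92.3 CPM in NK replicates 1 to 3 and 176, 142 and 177 CPM in ILC1 replicates 1 to 3. The NK values lay close together, and the lowest ILC1 value was well above them. The means were 89.96 ± 2.56 and 165 ± 20.1 CPM, a 1.83-fold difference, with a log2 fold change (ILC1 minus NK) of 0.87 ± 0.13 (SE). The 95% interval of the fold ran from 1.46 to 2.30. By edgeR's test the unadjusted p was 0.000579, the smallest of the 6 and number 77 among the 14475 genes, and the adjusted p was 0.103. DESeq2 gave an adjusted p of 0.00113, and over the alternatives the adjusted p ran from 1.52e-06 to 0.449. Nr4a3 did not move with the matrix-rich set: in NK replicate 3 it stood at the level of the other NK libraries, and the mean of ILC1 replicates 1 and 2 exceeded it by 0.78 on the log2 scale. In these bulk samples more cells with the mRNA and more mRNA per cell cannot be told apart.

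Nr4a1, which encodes NUR77 and is the usual reporter gene of antigen receptor signalling, differed less. NK replicates 1 to 3 had 435, 387 and 694 CPM, and ILC1 replicates 1 to 3 had 686, 648 and 804 CPM. NK replicates 1 and 2 were the low libraries, and NK replicate 3 lay among the ILC1 values. The means were 505 ± 165 and 713 ± 81.2 CPM, with a log2 fold change of 0.50 ± 0.25 (edgeR adjusted p = 0.396, 95% interval of the fold 0.919 to 2.16). The log2 fold change was 0.80 without NK replicate 3, and within the matrix-rich libraries the difference was -0.057.

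Nr4a2, which encodes NURR1, did not separate the cell types. It had 118, 87.6 and 161 CPM in NK replicates 1 to 3 and 139, 114 and 190 CPM in ILC1 replicates 1 to 3. The groups overlapped widely, with ILC1 replicate 2 below NK replicates 1 and 3. The log2 fold change was 0.27 ± 0.29 (edgeR adjusted p = 0.679), and the interval of the fold, 0.743 to 1.97, leaves room for either sign. The log2 value was 0.033 without ILC1 replicate 3, 0.086 without NK replicate 2, 0.43 without ILC1 replicate 2 and 0.53 without NK replicate 3. Within the matrix-rich libraries the ILC1 mean lay 0.35 below NK replicate 3 on the log2 scale, so for Nr4a1 and Nr4a2 the sign turned there while that of Nr4a3 did not.

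Within the NR4A family Nr4a1 took 73.7 to 78.2% of the summed RPKM in every library, and Nr4a2 took 11.9 to 17.3%. Nr4a3 took 8.97, 9.95 and 6.10% in NK replicates 1 to 3 and 11.3, 10.02 and 9.71% in ILC1 replicates 1 to 3. The lowest Nr4a3 share was that of NK replicate 3, where Nr4a1 and Nr4a2 were high.

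Egr1, the EGR gene with the most mRNA, varied more among libraries of a cell type than between cell types. NK replicates 1 to 3 had 218, 136 and 614 CPM, and ILC1 replicates 1 to 3 had 799.9, 836 and 323 CPM. The 3 matrix-rich libraries were the 3 highest, and ILC1 replicate 3 lay nearer to NK replicate 1 than to the other ILC1 libraries. The means were 322 ± 255 and 653 ± 286 CPM, a log2 fold change of 1.02 ± 0.66 (edgeR adjusted p = 0.5003, 95% interval of the fold 0.652 to 6.30). Leaving out single libraries moved the log2 fold change from 0.66 (without NK replicate 2) to 1.89 (without NK replicate 3).

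Egr3, a calcium- and NFAT-responsive family member, had the same profile as Egr1 at a lower level. Its values were 19.9, 12.6 and 58.96 CPM in NK replicates 1 to 3 and 76.1, 87.1 and 19.5 CPM in ILC1 replicates 1 to 3. Again the 3 matrix-rich libraries were highest, and ILC1 replicate 3 lay just below NK replicate 1. The log2 fold change was 1.00 ± 0.78 (edgeR adjusted p = 0.574, 95% interval of the fold 0.527 to 7.57). The log2 value was 0.63 without NK replicate 2 and 1.92 without NK replicate 3. The log2 profiles of Egr1 and Egr3, each centred on its own mean, differed by a root-mean-square of 0.25 over the 6 libraries, and 0.239% of 8799 other genes at 10 CPM or more were nearer to Egr1. For Egr1 against Egr2 this difference was 1.16, with 69.2% of those genes nearer to Egr1.

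Egr2, which in T cells restrains activation and which macrophages also express, had the largest ratio of the ILC1 to the NK mean of the 6. NK replicates 1 to 3 had 15.9, 4.41 and 41.2 CPM, and ILC1 replicates 1 to 3 had 50.3, 55.3 and 144 CPM. Each ILC1 library lay above each NK library, but NK replicate 3 came near to ILC1 replicate 1. The means were 20.5 ± 18.8 and 83.3 ± 52.9 CPM, a 4.06-fold difference, with a log2 fold change of 2.02 ± 0.87 (edgeR adjusted p = 0.336, 95% interval of the fold 0.911 to 18.1). DESeq2 gave an adjusted p of 0.0371 on all genes with a count and 0.0696 after the low-count filter, and the range over all alternatives was 0.0371 to 0.930. The log2 fold change was 1.33 without ILC1 replicate 3 and 3.04 without NK replicate 3. Within the matrix-rich libraries it was 0.36.

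The EGR family changed its make-up in ILC1 replicate 3 alone. Egr2 took 35.7% of the summed EGR RPKM there, against 3.76 to 8.11% in the other 5 libraries, and Egr1 took 60.6% against 83.8 to 87.98%.

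**Figure D2:**
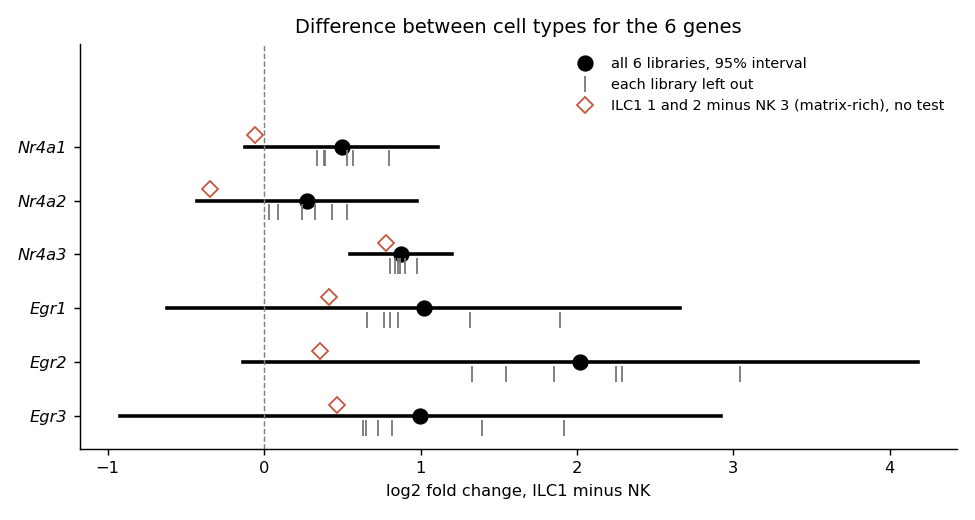
Log2 fold change (ILC1 minus NK, x axis) of each gene from edgeR with its 95% interval (black), with each library left out in turn (grey ticks), and as the difference between the mean of ILC1 replicates 1 and 2 and NK replicate 3 (open diamonds, no test). The interval of Nr4a3 lies above 0 and its ticks stay close to 0.87, while those of the 3 EGR genes spread widely.

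The mRNA of other cell types moved with the EGR genes. Egr1 and Egr3 were higher in each matrix-rich library than in each of the other 3, a shape that 21.5% of all genes tested shared. Of the 8 fibroblast and matrix markers tested, 7 had it, but the set was drawn up from such mRNA, so that count was fixed in advance. The summed level of the 10 listed fibroblast and matrix markers was 8.88, 19.5 and 1359 CPM in NK replicates 1 to 3 and 1657, 2233 and 5944 CPM in ILC1 replicates 1 to 3, the last of these mostly Fn1 (5887 CPM), a fibronectin gene that macrophages express too. Pdgfra, Lum and Fap were at 0 in NK replicate 1, and Lum and Fap in NK replicate 2. Mitochondrial genes took 2.65 to 3.30% of the counts of the matrix-rich libraries and 1.39 to 1.93% of the others. The shape was also found for 3 of 6 endothelium, 1 of 5 neutrophil and 0 of 6 dendritic cell markers tested. Endothelium markers summed to 185 to 257 CPM in NK and 170 to 214 CPM in ILC1 libraries. Dendritic cell markers summed to 537 to 885 and 416 to 608 CPM. The part of fibroblast or endothelial mRNA or of RNA quality in the Egr1 and Egr3 levels was not tested.

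Egr2 was highest where macrophage mRNA was highest. The summed macrophage and monocyte markers were 179, 101 and 230 CPM in NK replicates 1 to 3 and 320, 236 and 11148 CPM in ILC1 replicates 1 to 3. Only Fcgr1 in NK replicate 1 and Mrc1 in NK replicate 2 were at 0. Of the 10 markers tested, 0 passed edgeR's test and 6 were higher at an unadjusted p under 0.05 (6.95% of all genes), with a median log2 fold change of 4.70 beside 0.081 over all genes tested. That median was 1.14 without ILC1 replicate 3 and 0.290 within the matrix-rich libraries. Limma-voom called 0 of them, and DESeq2 gave no adjusted p for any of the 10. Without ILC1 replicate 3, both Egr2 and the summed macrophage and monocyte markers were still higher in the remaining ILC1 libraries than in each NK library. The part of macrophage mRNA in the level of Egr2 in ILC1 replicate 3 was not tested. Markers of B cells stayed at 1.65 to 6.25 CPM in sum, and those of neutrophils at 5.80 to 25.9 CPM except for 111 CPM in ILC1 replicate 3. Tumour epithelium markers summed to 16.7 to 33.2 CPM in NK and 106 to 381 CPM in ILC1 libraries, though only 2 of 5 tested had a log2 fold change above 0. The 8 T cell markers summed to 425 to 493 and 314 to 405 CPM. Of these, 4 were higher and 1 lower in every ILC1 library, as were 12.5 and 13.3% of all genes. The part of these cells in the levels of the 6 genes was not tested.

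**Figure D3:**
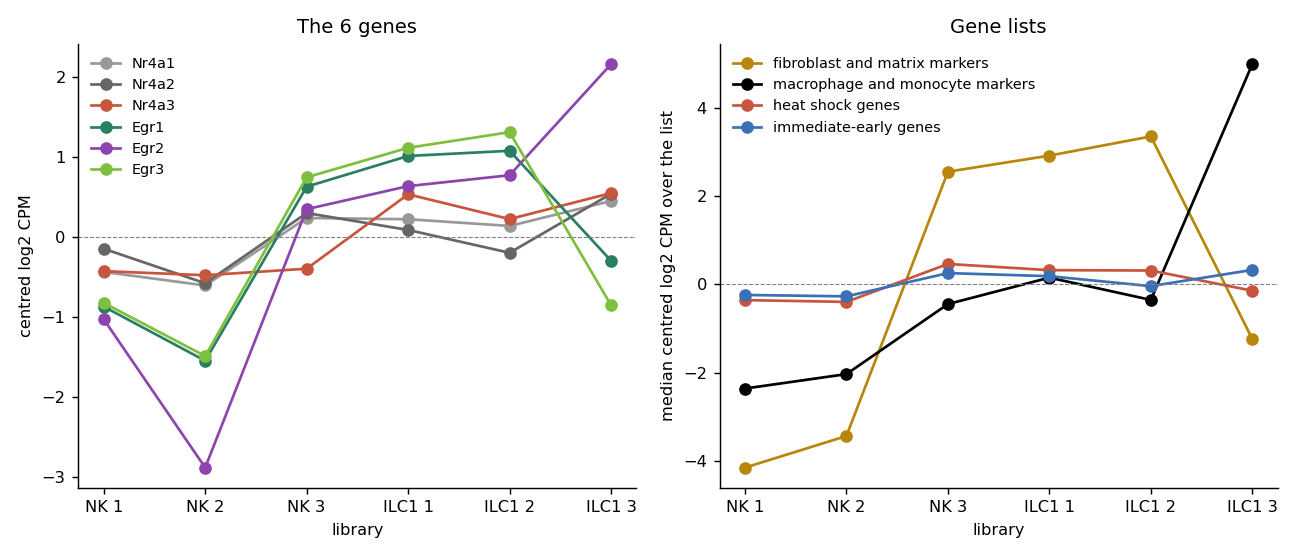
Centred log2 CPM (log2 CPM minus the gene's mean over the 6 libraries) of the 6 genes (left) and its median over 4 gene lists (right), by library, where lines only join the points of a gene or list. Egr1 and Egr3 are high in NK replicate 3 and ILC1 replicates 1 and 2, Egr2 peaks in ILC1 replicate 3, and Nr4a3 is low in the 3 NK and high in the 3 ILC1 libraries.

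Genes tied to chronic stimulation of lymphocytes were compared next, since NR4A factors are known to take part in that state. Of 15 tested genes, 2 rose in ILC1s by edgeR's test over all genes (Pdcd1, which encodes PD-1, and the chemokine receptor gene Cxcr6), where 0.076% of genes did, and 9 were higher with no overlap, as were 12.5% of genes. The list median was 1.46 beside 0.081 over all genes tested, and 0.695 within the matrix-rich libraries. Without ILC1 replicate 3 it was 0.573. That library, which held 11148 CPM of macrophage and monocyte markers, was the highest for Pdcd1 and, among genes named after their values were seen, for Havcr2 (126 CPM) and Entpd1 (151 CPM), and the part of macrophage mRNA in these levels was not tested. Pdcd1 had 4.09, 4.41 and 3.69 CPM in NK replicates 1 to 3 and 87.8, 86.8 and 190 CPM in ILC1 replicates 1 to 3, so that, like Nr4a3, it did not place NK replicate 3 with the ILC1 libraries. Cxcr6 had 3.54 to 7.24 CPM in NK cells and 62.2 to 91.9 CPM in ILC1s. Cxcr6, and Cd200r1 of the same list (named after its values were seen), are also among the 8 ILC1 markers. Both were higher in every ILC1 library. All libraries are of NK cells or ILC1s from tumours, so lineage and stimulation cannot be told apart for these or any other genes here. The edgeR adjusted p was 0.0377 for Pdcd1 and 0.0447 for Cxcr6, and limma-voom gave 0.0587 and 0.0433. DESeq2 called 5 of the list higher and 1 lower, against 2.83 and 2.94% of genes. Without NK replicate 1 or 2, or without ILC1 replicate 1 or 2, 0 genes of the list passed edgeR's test, against 5 without NK replicate 3 and 3 without ILC1 replicate 3.

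The more abundant members of that list were less far apart. Bhlhe40, a transcription factor gene of activated lymphocytes, had 780 to 1049.5 CPM in NK cells and 865 to 1236 CPM in ILC1s. Tnfrsf9, which encodes the activation-induced receptor 4-1BB, had 304 to 412 CPM in NK cells and 482 to 584 CPM in ILC1s (log2 fold change 0.54 ± 0.17, edgeR adjusted p = 0.247). The inhibitory receptor gene Tigit was lower (-1.15 ± 0.21, edgeR adjusted p = 0.1205) and Ctla4 higher in ILC1s (1.72 ± 0.18, edgeR adjusted p = 0.0579), each without overlap. Neither passed edgeR's test, while Ctla4 passed DESeq2 (adjusted p = 5.54e-11) and limma-voom (0.0437), and Tigit passed DESeq2 alone (adjusted p = 0.000833). Tox, which was named after its values were seen because its product works beside NR4A factors in exhausted T cells, had 24.5 to 32.2 CPM in NK cells and 15.2 to 26.2 CPM in ILC1s (-0.52 ± 0.25, edgeR adjusted p = 0.365). Tox2 was under the low-count filter.

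Other immediate-early genes did not form a group that split by cell type. Of 28 tested, 0 passed edgeR's test, 3 were higher and 2 lower at an unadjusted p under 0.05 (6.95 and 8.82% of all genes), while DESeq2 called 1 higher and limma-voom 0. ILC1 libraries lay above all NK libraries for 6 of them and below for 2, where 12.5 and 13.3% of all genes did. The median log2 fold change was 0.35 beside 0.081 over all genes tested, and -0.037 within the matrix-rich libraries. It was 0.169 when ILC1 replicate 3 was left out, and 0.219 and 0.215 when NK replicate 1 or 2 was. The AP-1 gene Fos had 916, 687 and 920 CPM in NK replicates 1 to 3 and 581, 497 and 1200.4 CPM in ILC1 replicates 1 to 3. ILC1 replicates 1 and 2, the highest libraries for Egr1, were thus the lowest for Fos. Jun was at 1133 to 1791 CPM in NK cells and 745 to 1478 CPM in ILC1s, Junb at 1356 to 1499 and 1488 to 2006 CPM, and Zfp36, which encodes an mRNA-destabilising protein, at 514 to 894 and 591 to 1737 CPM. Maff, the gene that DESeq2 called, was named after its values were seen and had 77.96 to 119.5 and 156 to 183 CPM. The shape of Egr1 and Egr3, high in the 3 matrix-rich libraries, was found for 5 of the 28, against 21.5% of all genes tested. These 5 (Fosb, Fosl1, Klf10, Myc and Ccn1) were also named after their values were seen. Ccn1, a matrix-associated signalling gene that fibroblasts express, had 333, 434 and 541 CPM in those libraries and 1.50 to 5.44 CPM in the others.

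Heat shock genes, listed here for stress from digestion and sorting, followed the libraries more than the cell types. No library was made without sorting, so handling and stress in the tumour cannot be told apart here. Of 14 heat shock genes tested, 0 passed edgeR's test, and 1 was higher at an unadjusted p under 0.05 (6.95% of all genes). DESeq2 and limma-voom called 0, while 11 had the shape of Egr1 and Egr3, against 21.5% of all genes. The list median was 0.34, and 0.0297 within the matrix-rich libraries. It was 0.175, 0.191 and 0.179 without NK replicate 1, NK replicate 2 and ILC1 replicate 2, and 0.648 without NK replicate 3. The cytosolic chaperone genes Hspa8 and Hsp90ab1, the most abundant of the list, had 3131 to 3505 and 3121 to 3691 CPM in the matrix-rich libraries and 2685 to 3006 and 2103 to 2555 CPM in the others. The inducible chaperone gene Hsp90aa1 had 994 to 1106 CPM in the matrix-rich libraries and 478 to 546 CPM in the others. Hspa5, a chaperone of the endoplasmic reticulum, was higher in every ILC1 library (1483 to 1734 CPM) than in every NK library (930.2 to 1277 CPM). Nr4a3 did not share the heat shock shape, and the part of sorting stress in the Egr1 and Egr3 levels was not tested.

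**Figure D4:**
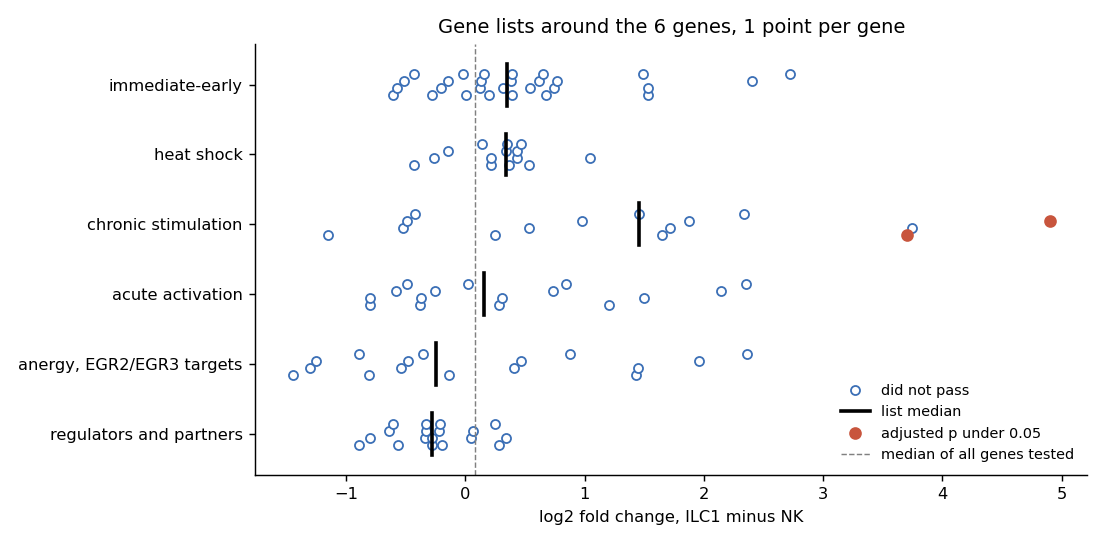
Log2 fold change (ILC1 minus NK, x axis) of every tested gene of 6 lists, with the list medians (black bars) and the median of all genes tested (dashed). Pdcd1 and Cxcr6 in the chronic stimulation list, in red, were the only points with an edgeR adjusted p under 0.05.

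Upstream regulators and partners of the 2 families did not pass the test, and more had lower than higher values in ILC1s. Of 18 tested, 0 passed edgeR's test, and 0 were higher and 4 lower at an unadjusted p under 0.05 (6.95 and 8.82% of all genes). DESeq2 called 1 lower (2.94% of genes), limma-voom called 0, and the median was -0.28. Srf, which encodes serum response factor, had 68.1 to 83.1 CPM in NK cells and 79.1 to 81.8 CPM in ILC1s. The EGR co-repressor genes Nab1 and Nab2 had log2 fold changes of -0.20 ± 0.13 and 0.25 ± 0.20. Nfatc1, the gene called by DESeq2, had 250 to 308 CPM in NK cells and 118 to 182 CPM in ILC1s (-0.89 ± 0.19, edgeR adjusted p = 0.150), and Nfatc3 had 154 to 174 and 95.997 to 124 CPM. The MEF2 genes Mef2d and Mef2a, whose products help switch on Nr4a1, had -0.28 ± 0.14 and 0.28 ± 0.25.

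Genes of T cell anergy, several of them known EGR2 and EGR3 targets, went both ways. Of 16 tested, 0 passed edgeR's test, and 3 were higher and 5 lower at an unadjusted p under 0.05 (6.95 and 8.82% of all genes). The numbers were the same by DESeq2 (2.83 and 2.94% of genes), limma-voom called 0, and the median was -0.25, or -0.374 without ILC1 replicate 3. ILC1 libraries lay above all NK libraries for 3 of them and below for 7, where 12.5 and 13.3% of all genes did. The adaptor gene Sh2d2a had 739.9 to 1102 CPM in NK cells and 432 to 631 CPM in ILC1s, and the diacylglycerol kinase gene Dgkz 211 to 395 and 161 to 277 CPM. Socs3, a cytokine signalling inhibitor, had 677 CPM in ILC1 replicate 3 and 159.7 to 289.6 CPM elsewhere. Among genes named after their values were seen, Fasl (-1.25 ± 0.19, edgeR adjusted p = 0.103) was lower and Tnfsf11, which encodes RANKL (1.96 ± 0.38, edgeR adjusted p = 0.133), higher in every ILC1 library.

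Acute activation genes were mixed as well. Of 16 tested, 0 passed edgeR's test, and 3 were higher and 1 lower at an unadjusted p under 0.05 (6.95 and 8.82% of all genes). DESeq2 put 2 higher (2.83% of genes) and limma-voom 1 (0.124%). The median was 0.152, and between 0.039 (without ILC1 replicate 1) and 0.282 (without ILC1 replicate 3) with single libraries left out. Irf8 had 861 to 1399 CPM in NK cells and 887 to 985 CPM in ILC1s, and the adhesion receptor gene Cd44 358 to 524 and 569.96 to 950.4 CPM. The chemokine genes Xcl1 and Ccl4 had log2 fold changes of 0.31 ± 0.17 and -0.38 ± 0.47. Il2ra, the gene that limma-voom called, was named after its values were seen and had 11.6 to 20.7 CPM in NK cells and 72.7 to 88.7 CPM in ILC1s (2.35 ± 0.24, edgeR adjusted p = 0.0579).

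Genes with the most similar profile were ranked by the root-mean-square difference of centred log2 CPM over the 6 libraries, among 8799 named genes with at least 10 CPM on average. For Nr4a3 they were Adgrg5, an adhesion G protein-coupled receptor gene (0.075), Gdpd5 (0.075) and the myosin gene Myo1e (0.084). Adgrg5 had 54.2 to 65.5 CPM in NK cells and 101 to 126 CPM in ILC1s. For Nr4a1 they were Klf6, itself an immediate-early gene (0.060), the aminopeptidase gene Npepps (0.060) and Frrs1 (0.065), and for Nr4a2 Diaph2, Csgalnact2 and Stambpl1 (0.123 to 0.130). Egr1 was nearest to Fanca, Acsl3 and Akap1 (0.117 to 0.153), and Egr3 to Dmwd, Kif15 and Ncaph (0.141 to 0.175). Egr2 was nearest to the syndecan gene Sdc1, to Lacc1 and to Tnfsf9, which encodes the 4-1BB ligand (0.195 to 0.258). Tnfsf9 had 62.9 CPM in ILC1 replicate 3 and 1.44 to 17.5 CPM elsewhere.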

How the data were processed

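The authors deposited raw counts per gene symbol. Per the submitters' processing notes, HISAT2 2.1.0, featureCounts 2.0.1 and GRCm38 were used. Which annotation release and strand option were chosen, and how multiply mapped reads were counted, is not given in those sources. Libraries were made from oligo(dT)-selected mRNA and read as single ends of 50 bases, per the labels' protocols, so counts may include PCR copies. Columns were matched to samples by name. CPM was computed with TMM-scaled library sizes, and RPKM from it by the union of GENCODE M21 exons.

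ILC1s and NK cells were compared across all genes with edgeR 4.0.16 in R 4.3.3 (filterByExpr, robust quasi-likelihood fit, Benjamini-Hochberg adjustment, threshold 0.05). The common dispersion was 0.352. With 3 libraries on each side the smallest two-sided p of an exact permutation test is 0.1, so only the model's p-values are given. Log2 values use a prior count of 2, and differences within the matrix-rich libraries add 0.1 CPM. Named genes were fixed by rule: the 6 genes, Egr4, Nab1, Nab2 and Srf, the 4 highest genes of each list, every listed gene past the test, the 3 highest markers of each cell type, and the 3 nearest genes by profile. The marker genes are given as sums. Members and lists were chosen with earlier results of these data known. Mrtfa, Mrtfb and Ccn1 were matched from older symbols in RefSeq. Alternatives were RLE and upper-quartile scaling, no filter, a floor of 5 CPM on the mean, a block for the replicate number, leaving out each library, DESeq2 1.42.0, limma-voom (limma 3.58.1) and unscaled library sizes. A term for library sets and DESeq2 after the filter were added after seeing the data. No library pair agreed within counting noise (the median chi-square per gene was at least 2.42, and counting noise alone gives 0.455). By this value NK replicate 3 was nearer to ILC1 replicates 1 and 2 (4.18 and 7.52) than to NK replicates 1 and 2 (15.6 and 16.9). ILC1 replicate 3 was far from ILC1 replicates 1 and 2 (25.7 and 23.6).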

Additional observations from a re-analysis of the deposited data

How the results depend on the processing

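None of the 6 genes passed edgeR's test under any scaling, filter, block or left-out library, and DESeq2 called 2 of them (Nr4a3 and Egr2) on all genes with a count and 1 (Nr4a3) after the low-count filter. With library sets as a term, which rests on the 3 matrix-rich libraries and takes the spread of its single NK library from the other groups, the log2 fold change was -0.057 for Nr4a1 and -0.35 for Nr4a2. The other 4 genes kept a positive log2 fold change in all 15 alternatives, Nr4a3 between 0.78 and 0.98, Egr1 between 0.42 and 1.89, Egr2 between 0.36 and 3.04 and Egr3 between 0.47 and 1.92. With unscaled library sizes the group means of CPM moved by less than 1 SD for each of the 6 genes. Over all genes, edgeR called 11 higher and 1 lower in ILC1s. These counts were 47 and 91 with no low-count filter, 12 and 2 with a mean of at least 5 CPM, 16 and 2 with limma-voom, 16 and 17 with library sets as a term, 400 and 416 with DESeq2, and 426 and 584 with DESeq2 after the filter. With single libraries left out they ran from 0 to 250 higher and from 0 to 199 lower: 250 and 199 without NK replicate 3, 11 and 11 without ILC1 replicate 3, and 0 without any other library. Of the chronic stimulation list, 2 genes passed, against 5 with no filter, 0 with the block, 4 with library sets, 6 with DESeq2, 7 with DESeq2 after the filter, and 0 to 5 with single libraries left out. Of the anergy list 0 passed, against 4 with no filter, 8 with DESeq2 with or without the filter, and 0 to 4 with libraries left out. Of the acute activation list 0 passed, against 1 with no filter or limma-voom, 2 with DESeq2 with or without the filter, and 0 to 1 with libraries left out. Of the immediate-early list 0 passed, against 1 with DESeq2, 3 after the filter, and 0 to 3 with libraries left out. Of the regulators 0 passed, against 1 with DESeq2 and 2 after the filter, and of the heat shock genes 0, against 1 with DESeq2 after the filter. The cause of these shifts was not tested. The replicate numbers are not said to mark a shared mouse or day, and deviations of same-numbered libraries correlated at -0.363, -0.355 and -0.564. No library correlated best with its own number. With a replicate block, 0 genes were higher and 0 lower. With 3 libraries a group, the interval of the fold is wide for Egr1, Egr2 and Egr3, and Egr2 rests on 86 counts in NK replicate 2. The part of depth in these intervals was not tested.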
